A study of Mus musculus with 8 samples.

Results

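A set of 9 genes of acylceramide and barrier lipid metabolism was followed through 3 deposited tables of embryonic mouse skin. The members were chosen by symbol (Abca12, Alox12b, Aloxe3, Nipal4, Elovl1, Elovl4, Ugcg, Smpd1 and Slc27a4), and all 9 of 9 were listed among 21882 gene symbols. The embryos were of the C57BL/6 strain. One table compares whole skin of genotype Cyp26b1-/- with wild-type whole skin on embryonic day 16.5 (E16.5), with 2 libraries a group that the authors pooled into 1 value. The other tables, for embryonic day 18.5 (E18.5), cover separated dermis and separated epidermis, each with 1 library of genotype En1cre;Cyp26b1f/- and 1 of the control genotype Cyp26b1f/+. The series' text speaks of duplicates, but the E18.5 columns each name a single library and are treated here as unreplicated. Cyp26b1 encodes an enzyme that clears retinoic acid, and En1cre acts in cells with a history of Engrailed 1 expression, among them dermal cells of the trunk. The E18.5 mutant and control also differ outside those cells, since the mutant has a null allele where the control has a wild-type one. The comparisons ask how skin transcripts differ when this enzyme is lost. Levels are given in FPKM, a count of sequenced fragments divided by transcript length and library size, which are comparable between genes of different length, and transcripts were summed per symbol.

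The water barrier of mammalian skin rests on lipid sheets between the dead cells of the cornified layer. Keratinocytes of the granular layer elongate fatty acids, join them to sphingoid bases as ceramides, attach linoleate to make acylceramides, glucosylate them and load them into lamellar bodies. After secretion the sugar and phosphocholine groups are removed, and 2 lipoxygenases acting in series oxidise the linoleate so that the ceramide can be bound to the cornified envelope. Loss of most of these genes gives ichthyosis or a lethal barrier defect, and excess retinoic acid is known to disturb the late steps of keratinocyte differentiation.

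The labels were checked first. Cyp26b1 itself, summed over 2 transcripts, went from 34.95 to 58.2 FPKM in E16.5 skin, from 54.2 to 102 FPKM in dermis and from 4.97 to 13.7 FPKM in epidermis, so its summed level was not lower in any library labelled mutant, and directions below rest on the labels. At E16.5 its 2 transcripts passed the test described below in opposite directions. Whole-transcript values do not show whether the deleted part is missing. The dermis libraries also hold keratinocyte transcripts: the basal keratin Krt5 stood at 6265 FPKM in control dermis and 2634 FPKM in control epidermis. Krt1 and Krt10 in epidermis and E16.5 skin, and Lor in epidermis, have rows marked as too high to estimate, with 0 listed in 1 or both groups, and were not used. The median gene was higher in null E16.5 skin by 0.43, higher in mutant dermis by 0.12 and lower in mutant epidermis by 0.18 on the log2(FPKM + 1) scale. Folds are therefore given as log2((mutant FPKM + 1)/(control FPKM + 1)) relative to that median gene unless said otherwise. The pseudocount of 1 understates the change of low genes. No spread between libraries can be computed from any of the tables, and the read depth is unknown.

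The members lie on 6 chromosomes in build mm9. Aloxe3 (chromosome 11, 68939879 to 68962617, plus strand) and Alox12b (chromosome 11, 68970574 to 68983293, plus strand) are neighbours, with 7956 bases between them. Nipal4 lies elsewhere on chromosome 11 (45961657 to 45979861, minus strand). Elovl1 and Ugcg are both on chromosome 4 (118100698 to 118109948 and 59202422 to 59235705, plus strand), Abca12 on chromosome 1 (71289664 to 71461484, minus strand), Slc27a4 on chromosome 2 (29658200 to 29673042, plus strand), Smpd1 on chromosome 7 (112702874 to 112706903, plus strand) and Elovl4 on chromosome 9 (83672299 to 83699912, minus strand). In E16.5 skin 4 of the 9 fell relative to the median transcript, as described below. The 250 bases before the start site are shown for 3 of those 4 and, for contrast, for Abca12, which was not called (RefSeq, build GRCm38.p6). Capitals mark matches to 9 short motifs searched on both strands. Aloxe3 has no entry in the promoter table.
Elovl1, chr4:118427843-118428092, plus strand: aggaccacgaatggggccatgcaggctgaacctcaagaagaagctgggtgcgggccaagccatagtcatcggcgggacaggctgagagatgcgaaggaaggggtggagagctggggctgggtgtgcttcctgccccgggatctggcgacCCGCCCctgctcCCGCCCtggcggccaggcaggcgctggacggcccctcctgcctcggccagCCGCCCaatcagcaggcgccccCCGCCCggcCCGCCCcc
Nipal4, chr11:46166360-46166609, minus strand: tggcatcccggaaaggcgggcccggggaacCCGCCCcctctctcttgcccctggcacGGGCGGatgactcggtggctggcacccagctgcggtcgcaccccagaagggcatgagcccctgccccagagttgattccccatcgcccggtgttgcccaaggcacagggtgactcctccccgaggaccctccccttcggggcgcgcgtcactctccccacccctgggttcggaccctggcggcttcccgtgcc
Smpd1, chr7:105554110-105554359, plus strand: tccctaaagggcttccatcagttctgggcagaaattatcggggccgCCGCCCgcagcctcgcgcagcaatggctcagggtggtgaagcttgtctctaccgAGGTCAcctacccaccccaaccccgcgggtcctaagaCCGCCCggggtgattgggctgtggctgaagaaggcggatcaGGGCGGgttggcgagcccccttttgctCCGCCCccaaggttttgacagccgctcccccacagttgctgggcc
Abca12, chr1:71414911-71415160, minus strand: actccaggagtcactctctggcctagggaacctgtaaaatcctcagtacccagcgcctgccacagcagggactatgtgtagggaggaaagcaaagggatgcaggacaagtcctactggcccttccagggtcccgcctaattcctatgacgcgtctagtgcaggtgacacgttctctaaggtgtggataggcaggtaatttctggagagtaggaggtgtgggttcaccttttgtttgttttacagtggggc
In these windows the capitals are GGGCGG, the core of the Sp1 site, on either strand, except for a single AGGTCA in Smpd1 that starts 150 bases before the start site. AGGTCA is the single site of retinoid receptors and of many other nuclear receptors. Elovl1 has a second listed start, whose window holds AGGTCA on the minus strand 95 bases before it. Over the 8 members in the table, AGGTCA was found for 2 members and in 14.0% of all 32851 promoter windows of this length. GGGCGG was found for 7 of 8 members and in 32.7% of all windows, with no match in the Abca12 window. AACCGG, part of the grainyhead site, was found for 1 member, Elovl4, and in 5.62% of windows. Direct repeats of AGGTCA with 5, 2 or 1 bases between them, the AP-1 site TGANTCA, the sterol element TCACNCCAC and the TATA box TATAAA were found for 0 of 8 members, and in 0.00913%, 0.00913%, 0.0335%, 6.75%, 1.05% and 12.4% of all windows, in that order. AGGTCA is part of its own repeats. A match is a description of the letters and says nothing on binding.

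All 9 genes were expressed in E16.5 skin and E18.5 epidermis, and most were low in dermis. In wild-type E16.5 skin their levels ran from 28.5 FPKM for Abca12 to 387 FPKM for Elovl1, in the order Elovl1, Alox12b (261 FPKM), Elovl4 (191), Smpd1 (94.2), Aloxe3 (93.1), Nipal4 (46.5), Slc27a4 (40.65), Ugcg (35.2) and Abca12. In control epidermis the order was Elovl1 (563 FPKM), Alox12b (463), Smpd1 (267), Elovl4 (176), Aloxe3 (168), Slc27a4 (140), Nipal4 (28.6), Abca12 (18.2) and Ugcg (7.83). With 1 value per group, it cannot be said which neighbours in these orders differ beyond a spread. Elovl1 was the highest member in 5 of the 6 groups and Alox12b in the other, null E16.5 skin.

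Set side by side, control epidermis exceeded control dermis for every member, by 57.7 times for Alox12b, 47.0 times for Aloxe3, 46.7 times for Abca12, 13.7 times for Nipal4, 12.4 times for Elovl4, 10.6 times for Elovl1, 9.93 times for Smpd1, 4.82 times for Slc27a4 and 2.80 times for Ugcg. The tables were normalised separately, so these are levels set across tables and not a test. The median gene differed by -0.24 on the log2(FPKM + 1) scale, epidermis minus dermis. The lipoxygenases had the highest ratios, also in the mutant libraries (291 times for Alox12b and 259 for Aloxe3), and Ugcg and Slc27a4 the lowest (2.23 and 8.09 times in the mutant libraries). In the mutant libraries Elovl4 (122 times) stood above Abca12 (106 times). By the labels' numbers the dermis and epidermis libraries are not matched. Abca12, at 0.39 and 0.18 FPKM in the dermis libraries, did not pass the minimum of 1 FPKM there, so its ratio rests on very low values.

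**Figure D1:**
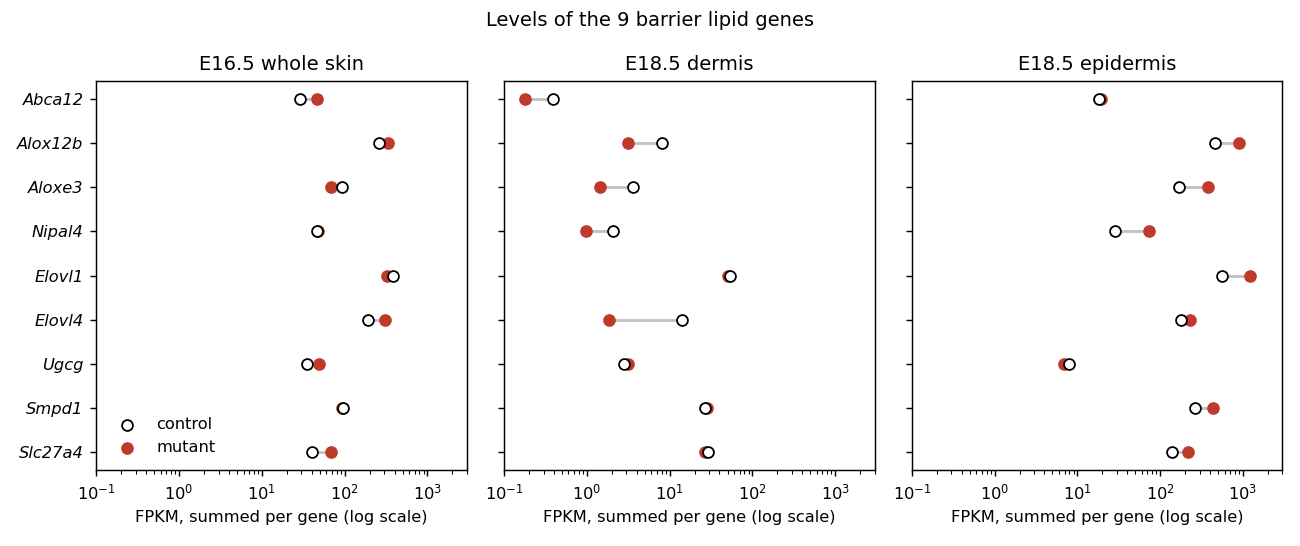
Level of each member in control (open) and mutant (filled) samples, in FPKM summed per gene on a log axis, for E16.5 whole skin (1 pooled value per group), E18.5 dermis and E18.5 epidermis (1 library per group). Every member is at 28.5 FPKM or more in skin. In epidermis Ugcg (7.83 and 6.97 FPKM) and Abca12 (18.2 and 19.1 FPKM) are the lowest. Abca12, Nipal4, Aloxe3, Alox12b and Ugcg are below 10 FPKM in both dermis groups.

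In E16.5 skin labelled null, 4 members fell and 0 rose of 9 tested, relative to the median transcript; Elovl4 entered only through a minor transcript. Across all 16303 tested genes 9.99% fell and 8.27% rose. Those that fell were Elovl1 and Smpd1, which supply very-long-chain acyl groups and free ceramide, Aloxe3, the second of the lipoxygenases, and Nipal4, a membrane protein of lamellar lipid handling. No member was 2-fold from the median gene (0 higher and 0 lower of 8, beside 1.67% and 2.85% of 14154 genes), with a member median of -0.24 over the 8 members without a low-data row. Without centring, before the median gene is subtracted, that median was 0.19. Rose and fell refer to the statistic of the authors' Cuffdiff table, recomputed after the median deposited log2 fold of 0.47 was subtracted, with Benjamini-Hochberg adjustment over 19608 transcripts. At an unadjusted p under 0.05 the same test still gave 0 members higher and 4 lower. The authors' deposited table, without centring, called 3 members higher (Abca12, Ugcg and Slc27a4) and 2 lower (Aloxe3 and Elovl1) at q under 0.05, against a background of 54.6% higher and 3.46% lower.

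Aloxe3, which turns the hydroperoxide made by its partner into an epoxyalcohol, went from 93.1 to 67.5 FPKM. Against the median transcript its deposited log2 fold was -0.94, with an SE of 0.14 implied by the test statistic (adjusted p = 2.67e-09, recomputed from the authors' Cuffdiff statistic). Alox12b, the lipoxygenase that acts first on the linoleate, went from 261 to 331 FPKM, -0.13 from the median transcript (SE 0.16, adjusted p = 0.676 from the authors' statistic). Of the neighbouring genes 1 was thus higher and the other lower in FPKM, and the wild-type ratio of Alox12b to Aloxe3 of 2.80 became 4.90 in the null, a ratio that no scaling of the libraries changes. Its change has no test here. Nipal4, whose loss causes ichthyosis, went from 46.5 to 47.9 FPKM, so it was level in FPKM and fell only against the median, by 0.43 (SE 0.14, adjusted p = 0.0158 from the authors' statistic), with an uncentred log2(FPKM + 1) fold of 0.04.

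Of the elongases, Elovl1 fell and Elovl4 has no usable test. Elovl1, which makes saturated very-long-chain acyl groups, went from 387 to 325 FPKM summed over 3 transcripts. One transcript, NM_001039176, carried the fall, from 252 to 162 FPKM (-1.12, SE 0.15, adjusted p = 3.02e-12 from the authors' statistic). The transcript NM_019422 went from 129 to 157 FPKM (-0.20, SE 0.14, adjusted p = 0.407 from the authors' statistic), and NM_001039175 from 6.03 to 6.43 FPKM. All 3 share 1 listed locus, so their split is the authors' estimate from shared reads. Elovl4, which makes the ultra-long acyl chains of acylceramides, went from 191 to 311 FPKM, of which NM_001145974 held 99.8% in wild type. That row is marked as low data and untested, as are the same 271 transcripts in each of the 3 tables. The tested Elovl4 transcript, NM_148941, was listed at 0.29 and 0.2 FPKM.

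Of the remaining members, the enzymes Smpd1 and Ugcg and the transporters Abca12 and Slc27a4, Smpd1 fell. Smpd1, the acid sphingomyelinase, went from 94.2 to 92.7 FPKM, again level in FPKM and lower against the median by 0.50 (SE 0.14, adjusted p = 0.00331 from the authors' statistic), while its uncentred log2(FPKM + 1) fold was -0.02. Ugcg, which puts glucose on ceramide, went from 35.2 to 48.7 FPKM and kept to the median transcript (-0.01, SE 0.14, adjusted p = 0.987 from the authors' statistic). Abca12, the lamellar body lipid transporter, went from 28.5 to 45.8 FPKM (0.21, SE 0.15, adjusted p = 0.387 from the authors' statistic). Slc27a4, a fatty acid transport protein that activates very-long-chain fatty acids, went from 40.65 to 68.3 FPKM (0.28, SE 0.14, adjusted p = 0.188 from the authors' statistic). Those 3 were higher in FPKM, and none of them passed the test once the median was taken off.

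**Figure D2:**
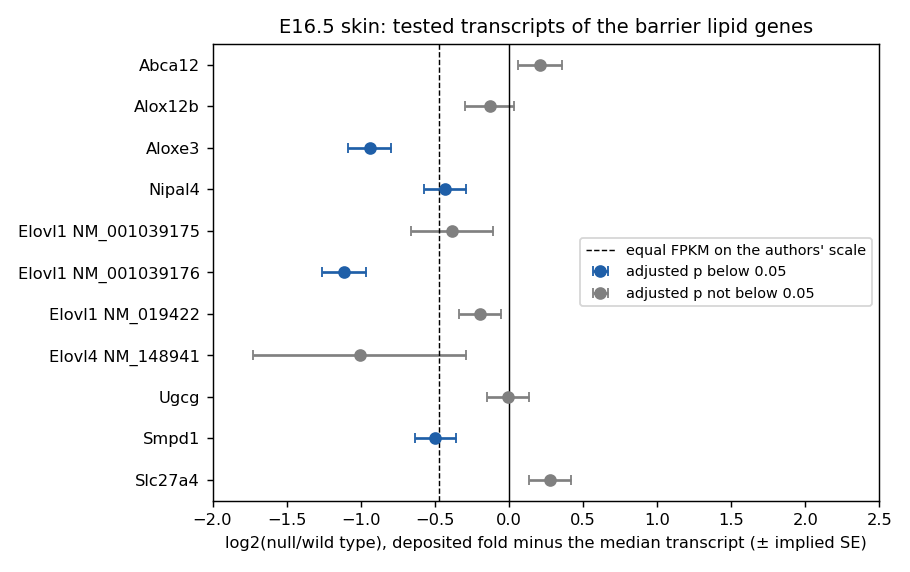
Deposited log2 fold (null over wild type) of each tested member transcript in E16.5 skin, minus the median transcript, with the SE implied by the authors' test statistic; the solid line is the median transcript and the dashed line equal FPKM. Aloxe3, Nipal4, Smpd1 and the Elovl1 transcript NM_001039176 are the called ones, and Nipal4 and Smpd1 lie on the dashed line.

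Base composition moved with the folds in this table. Over 13426 genes with a value, Spearman's rho between transcript GC content and fold was -0.33, as a description across genes, which share the same libraries. The median fold went from 0.11 in the quintile of genes lowest in GC to -0.16 in the highest quintile. The 4 members that fell have GC contents of 55.7% (Smpd1), 54.9% (Aloxe3), 52.5% (Elovl1) and 51.0% (Nipal4), beside 43.6% for Ugcg, 46.1% for Abca12, 55.2% for Alox12b and 56.8% for Slc27a4. With the median taken within each quintile of GC content, an alternative chosen after seeing the data, 4 members were lower and 1 higher. The 4 were the same genes, and the other was Slc27a4 (0.46 against genes of like GC, adjusted p = 0.0123 from the authors' statistic). At that setting 8.93% of all tested genes were lower and 7.73% higher. Aloxe3 and Elovl1 held the smallest p-values of the members at both settings.

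Markers of several cell types changed in the same libraries. Of 15 tested granular and cornified layer markers 11 fell and 0 rose, with a median fold of -1.07, and Klk7, a protease of corneocyte shedding, went from 127 to 6 FPKM. The summed level of that list went from 5797 to 4922 FPKM, and that of basal keratinocyte markers from 2923 to 2855 FPKM. Lens markers rose as well, from 7.43 to 1469 FPKM in sum over 6 genes, none of them at 0 in wild type. Of 5 adipocyte markers 4 fell (median -0.64), and of 4 tested spinous markers 2 fell. Of 7 periderm and mucosal markers 4 rose and 3 fell, and of 4 erythroid markers 2 rose. The erythroid sum, 6478 to 11805 FPKM, was mostly Hba-a1 (6417 to 11652 FPKM), which was not called. Across all tested genes 9.99% fell and 8.27% rose. By the authors' q-value, not centred, 9 granular and cornified, 1 spinous and 1 adipocyte marker were lower, and 1, 1 and 0 were higher. Erythroid markers had 4 higher, and periderm and mucosal ones 4 higher and 2 lower. Of all tested genes 3.46% were lower and 54.6% higher at that setting. In whole skin, fewer cells of a layer and less RNA per cell cannot be told apart, and the part of these cell types in the members' folds was not tested.

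A wider list of 100 measured genes of the same pathways showed 20 risen and 19 fallen of 96 tested in E16.5 skin, beside 8.27% and 9.99% of all genes. In the authors' deposited table, not centred, 58 of them were higher and 7 lower by q-value. Of all tested genes 54.6% were higher and 3.46% lower by that measure. Genes of cholesterol and cholesterol sulphate synthesis made up the largest group of rises, with 7 risen and 2 fallen of 11 tested and a median fold of 0.56. Sqle, squalene epoxidase, rose from 56.1 to 138 FPKM (0.86). Dhcr7, the last reductase of cholesterol synthesis, fell from 58.3 to 38.7 FPKM (-1.01). By q-value, 8 genes of the group were higher and 1 lower in the authors' deposited table. Hmgcs1 is listed at 0 in all 6 groups and was not tested.

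Falls were spread over other steps. Acsbg1, an acyl-CoA synthetase, fell from 56.4 to 9.15 FPKM (-2.93) and Smpd3, a neutral sphingomyelinase, from 41.9 to 7.34 FPKM (-2.79), both much further than any of the 9 members. Slc27a3, a relative of Slc27a4, fell from 9.92 to 7.3 FPKM (-0.82) and Pnpla2, a triglyceride lipase, from 59.4 to 46.2 FPKM (-0.78). Of the 7 genes of linoleate oxidation and lipid attachment beside the members, 3 fell and 1 rose, while 2 were higher and 0 lower by q-value in the authors' deposited table, and 2 fell with centring by GC quintile. The one that rose was Alox15, at 0.28 and 1.23 FPKM. Tgm1, the transglutaminase of the cornified envelope, stood at 113 and 263 FPKM (0.79), without a call because its transcripts passed in opposite directions. Of the 7 for omega-hydroxylation and acyl transfer, 1 fell and 0 rose, and of 11 regulators 4 fell and 0 rose. By q-value in the authors' deposited table, without centring, 3 genes were higher and 1 lower in the omega-hydroxylation group, and 3 higher and 0 lower among regulators. The shares over all tested genes by that q-value were 54.6% higher and 3.46% lower. Rises outside cholesterol synthesis included Lipk, an epidermal lipase, from 40.0 to 122 FPKM (1.16), and the ceramide synthase Lass6 from 2.02 to 6.78 FPKM (0.94). The ceramide synthase of acylceramides, Lass3 (now Cers3), went from 49.25 to 67.5 FPKM, 0.02 from the median gene.

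**Figure D3:**
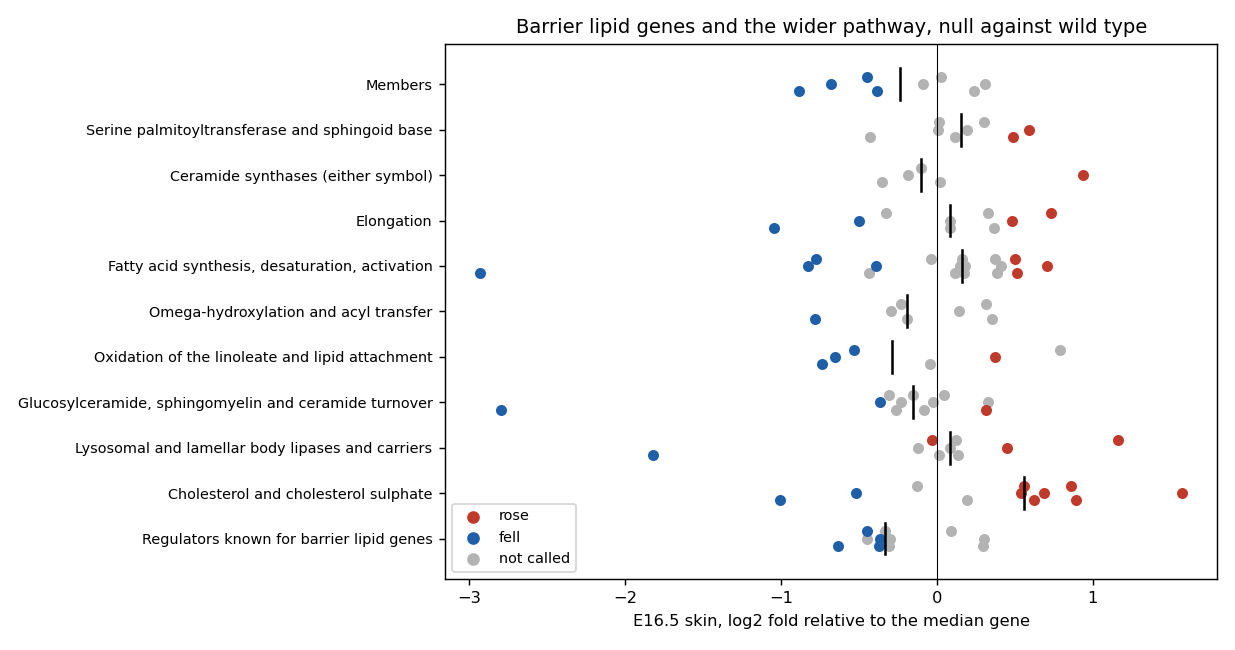
E16.5 skin: log2 fold relative to the median gene for 8 members (Elovl4 left out) and for the wider pathway genes by role, at least 1 FPKM in either group; each point is a gene, red rose, blue fell, grey was not called, and the black bar is the median of the group. Calls are made on transcripts, so a called gene can lie near 0; the cholesterol group has the highest median (0.56), and the members' median is -0.24.

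In E18.5 epidermis labelled En1cre;Cyp26b1f/-, the 8 members without a low-data row all stood above the median gene, in these 2 libraries. The median splits all genes evenly. Ugcg and Abca12 stood above it by little, and Ugcg was lower than control in FPKM. Of 8 members without a low-data row, 4 were at least 2-fold higher and 0 lower, beside 3.49% higher and 4.86% lower among 11362 genes, and the median was 1.01. No test is possible with 1 library in each group. The lipoxygenases and Nipal4 stood furthest from the median gene together with Elovl1, and Ugcg and Abca12 stayed near it.

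Nipal4 went from 28.6 to 72.4 FPKM (1.49), Aloxe3 from 168 to 376 FPKM (1.34) and Alox12b from 463 to 906 FPKM (1.14). The ratio of Alox12b to Aloxe3 was 2.76 in control and 2.41 in mutant epidermis, so the neighbours stayed close to the ratio of wild-type E16.5 skin. Elovl1 went from 563 to 1228 FPKM (1.3), and most of the difference was in NM_001039176, from 470 to 1098 FPKM. NM_019422 was listed at 0 in control and 54.3 FPKM in mutant epidermis. The authors' deposited E18.5 tests compare 2 libraries and not the conditions, so none is used here.

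Smpd1 went from 267 to 436 FPKM (0.88) and Slc27a4 from 140 to 218 FPKM (0.81), both short of 2-fold. Elovl4 went from 176 to 226 FPKM (0.54), with its main transcript in the low-data row. Abca12 was listed at 18.2 and 19.1 FPKM (0.24) and Ugcg at 7.83 and 6.97 FPKM (0.03 relative to the median gene and -0.15 without centring). Abca12 and Ugcg, which load and glucosylate the lipid, thus had the folds nearest to 0 among the members.

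Layer markers differed between the same 2 epidermis libraries. All 8 basal keratinocyte markers were below the median gene in the mutant, 5 of them at least 2-fold, and their summed level went from 5742 to 1873 FPKM. Of 11 granular and cornified markers at 1 FPKM, 9 were above the median gene, with a median fold of 0.42 and a summed level from 4152 to 5683 FPKM. That sum leaves out Lor, Asprv1, Flg2 and Hrnr, whose rows are marked as too high to estimate. Lor and Asprv1 were listed at 21262 and 15059 FPKM in control epidermis. The E16.5 sum of the list leaves out only Hrnr, so the 2 sums cover different genes. Dermal fibroblast markers were lower too, 6 of 8 at least 2-fold, with a summed level from 420.0 to 121 FPKM, and none was at 0. The part of these differences in layer and tissue content in the members' values was not tested. The members' own summed level went from 1655 to 3262 FPKM without Elovl4, which has a low-data row. With Elovl4 it went from 1831 to 3488 FPKM.

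In the wider list, 5 genes were at least 2-fold higher and 5 lower of 87 at 1 FPKM in epidermis, beside 3.49% and 4.86% of all genes, so the counts stood near the background. Those with the highest folds included Acsbg1 from 170 to 392 FPKM (1.38), Tgm1 from 178 to 398 FPKM (1.33), Cyp4f39, the omega-hydroxylase of ultra-long acyl chains, from 94.6 to 197 FPKM (1.23), and Sdr9c7, a dehydrogenase that follows the lipoxygenases, from 106 to 189 FPKM (1.01). All 7 genes for omega-hydroxylation and acyl transfer were above the median gene, with a median of 0.70. The lowest were Rora, a nuclear receptor, from 24.1 to 3.2 FPKM (-2.40), the lipoxygenase Alox12e from 75.45 to 19.5 FPKM (-1.72), the desaturase Degs2 from 46.2 to 17.2 FPKM (-1.20), Scd1, a fatty acid desaturase, from 17.8 to 6.76 FPKM (-1.10), and Fads2 from 5.28 to 1.65 FPKM (-1.07).

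In E18.5 dermis most members were low, and all 7 that could be compared stood below the median gene in the mutant library. The median splits all genes evenly. Ugcg (-0.0025) and Smpd1 (-0.07) stood below it by little, and both were higher than control in FPKM. Of 7 members at 1 FPKM without a low-data row, 2 were at least 2-fold lower and 0 higher, with a median of -0.23. The 2 became 1 without centring, with a minimum of 5 FPKM or with no filter, and the median was -0.50 with Elovl4 kept. Over 13398 genes 13.9% were that much lower and 14% higher, so these libraries differed widely. Alox12b went from 8.03 to 3.11 FPKM (-1.26), Aloxe3 from 3.57 to 1.45 FPKM (-1.02) and Nipal4 from 2.08 to 0.97 FPKM (-0.77). Those 3 had the lowest folds of the 7. Elovl4, outside that count, went from 14.2 to 1.86 FPKM (-2.54), with 1 transcript in a low-data row and the other listed at 0 in the mutant.

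The other members were close to level between the dermis libraries. Elovl1 was listed at 53.0 and 51.3 FPKM (-0.17), Slc27a4 at 29.1 and 26.9 FPKM (-0.23), Smpd1 at 26.9 and 27.9 FPKM (-0.07, and 0.05 without centring) and Ugcg at 2.8 and 3.13 FPKM (-0.0025, and 0.12 without centring). Below the steady sum of Elovl1, its transcripts were split in another way: NM_001039175 went from 21.6 to 2.53 FPKM and NM_019422 from 13.4 to 39.3 FPKM. The first of them carries q = 0.02 in the authors' deposited table, which again compares 2 libraries. The transcripts share a locus, so these values are the authors' split of reads, and the gene's sum differed by little.

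Keratinocyte markers were lower in the same mutant dermis library. Of 8 basal markers 7 were at least 2-fold lower, with a summed level from 12407 to 3802 FPKM, and of 14 granular and cornified markers 11 were at least 2-fold lower, from 971 to 415 FPKM in sum. All 7 usable dermal fibroblast markers were above the median gene, from 872 to 2098 FPKM in sum, as were all 7 skeletal muscle markers, from 1565 to 4892 FPKM, with none at 0. The fibroblast sum leaves out Col1a1, Col1a2 and Col3a1, whose rows are marked as too high to estimate. They were listed at 8297, 3829 and 4353 FPKM in control dermis and at 0 in mutant dermis. The part of these marker differences in the members' values was not tested.

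In the wider list, 22 genes were at least 2-fold lower and 15 higher of 91 at 1 FPKM in dermis, beside 13.9% and 14% of all genes. The lowest by rank were Fa2h, a fatty acid hydroxylase, from 13.4 to 1.07 FPKM (-2.92), Pnpla2 from 66.9 to 13.9 FPKM (-2.31), Acsbg1 from 16.0 to 2.75 FPKM (-2.31), Hopx, a regulator of keratinocyte differentiation, from 61.9 to 15.1 FPKM (-2.09), and the acyltransferase Dgat2 from 34.1 to 8.1 FPKM (-2.07). Among the highest were Lipa, the lysosomal acid lipase, from 2.41 to 15.8 FPKM (2.18), the fatty acid carriers Fabp5 from 81.7 to 396 FPKM (2.14) and Dbi from 67.4 to 252 FPKM (1.76), and Slc27a6 from 2.43 to 10.2 FPKM (1.58). Of 5 adipocyte markers, 3 were at least 2-fold lower in mutant dermis, among them the lipid droplet gene Plin1, from 95.7 to 5.28 FPKM, and 1 was higher.

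**Figure D4:**
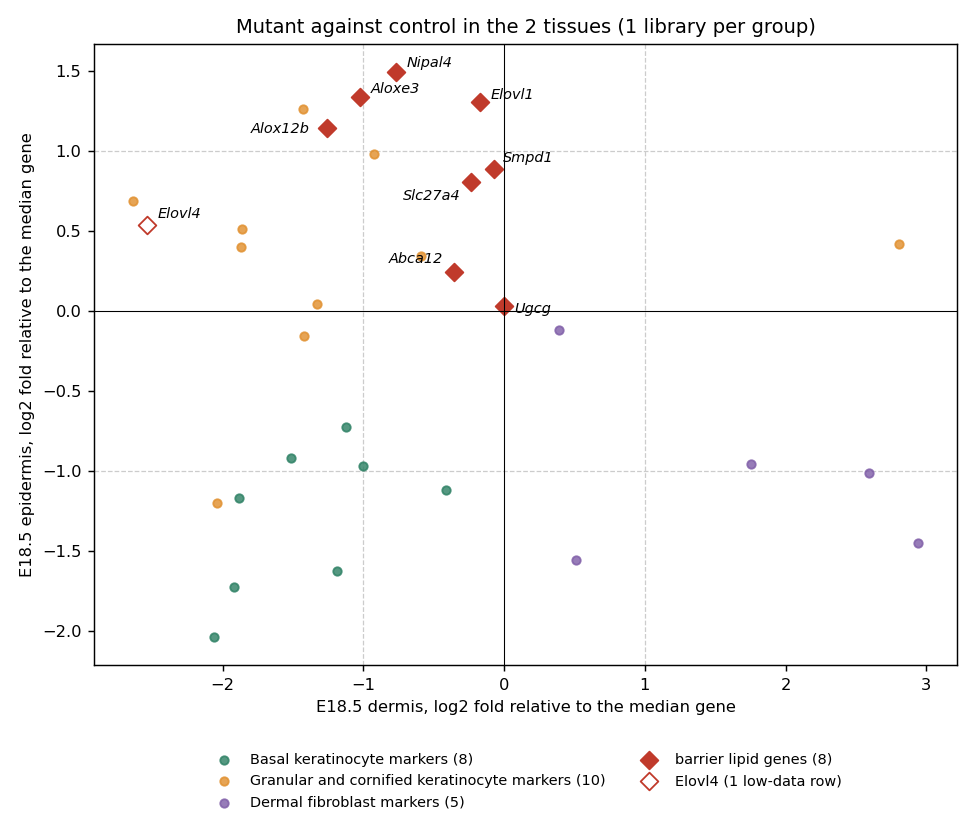
Log2 fold of mutant over control relative to the median gene in E18.5 dermis (x axis) and epidermis (y axis), 1 library per group, for the members (red diamonds, Elovl4 open, Abca12 below 1 FPKM in dermis) and for basal, granular and fibroblast markers at 1 FPKM or more in both tissues; dashed lines mark 2-fold. Alox12b (-1.26 and 1.14) and Aloxe3 (-1.02 and 1.34) are past 2-fold in opposite directions on this scale (without centring Alox12b in epidermis, 0.97, and Aloxe3 in dermis, -0.90, are short of it), and the basal markers are below the median in both tissues.

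**Figure D5:**
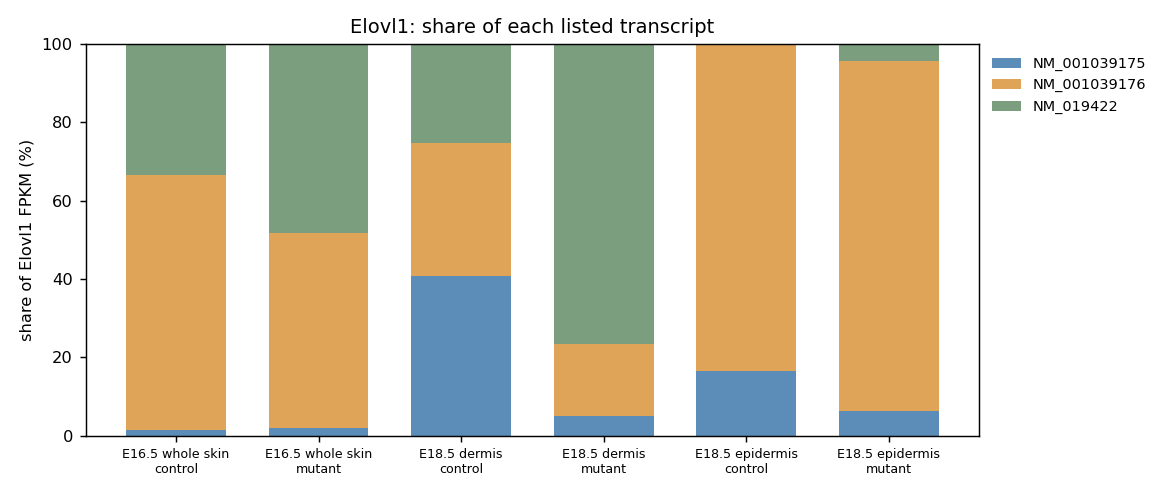
Share of the summed Elovl1 FPKM held by each of its 3 listed transcripts, in percent, in the 6 groups (E16.5 groups pooled, E18.5 groups 1 library each). NM_019422 goes from 25.3% in control dermis to 76.7% in mutant dermis and from 33.4% to 48.3% between the E16.5 groups, and is listed at 0 in control epidermis.

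As the plot of Elovl1 shares shows, the estimated split varied between groups: NM_001039176 held 83.6% of Elovl1 in control epidermis and 33.9% in control dermis. Over the 6 group values, the members' profiles were most alike, with Pearson's r of log2(FPKM + 1) of 0.99 for Aloxe3 with Elovl1 and 0.99 for Alox12b with Aloxe3, and least alike for Ugcg with Slc27a4 (0.14). These values describe 36 pairs over 6 points that share libraries and an epidermis to dermis contrast. Among 12065 other genes, those most like Abca12 included Lipm, a lipase of the granular layer (r = 0.9991), Zfp185 (r = 0.9975) and Orm1 (r = 0.9959). Those most like the members' mean profile were Wfdc5 (r = 0.9989), Slc22a23, Zfp706, Slc34a2 and Slc6a19 (r = 0.9970). Lipm, for instance, stood at 80.4 and 149 FPKM in wild-type and null E16.5 skin, 1.44 and 0.59 FPKM in dermis and 51.1 and 56.0 FPKM in epidermis, the same order of groups as Abca12.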

How the data were processed

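Transcript profiles came from RNA sequencing of 8 libraries (Trizol RNA, Illumina TruSeq kit, per the labels' protocols). The submitters' processing notes name Bowtie 0.12.7.0, TopHat 1.3.2, Cuffdiff 1.3.0 and Cufflinks with build mm9 and no settings; strand handling is not given in the sources used here. Per the file headers, the authors deposited FPKM for 27641 RefSeq transcripts, a log2 fold and a test statistic (both held here as a score, because a group at 0 is coded by an extreme number), a p-value and a q-value. Depth is unknown, so no count test was run.

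FPKM were summed per symbol. Genes with a row whose status marks failed, low or too high data were left out of medians and counts. For E16.5, the SE was the deposited fold divided by the statistic, the median deposited fold was subtracted, and a two-sided normal p was adjusted by Benjamini-Hochberg over tested transcripts; a gene counted as risen or fallen when 1 or more of its transcripts passed in that direction and none in the opposite one. Transcripts at 0 in a group, or with a deposited fold or statistic of 0, kept the authors' p-value. Computed without centring, that p came within 0.00401 of the deposited p-value throughout. The SE reflects Cuffdiff's own model. Separate animals are not named in the labels, so p-values measure only these libraries, whose spread may be technical. For E18.5, genes were counted past 2-fold. The procedure was tested on simulated data drawn with normal noise of the same SE and 1 common shift. It therefore could not check that SE, the spread between animals or a shift that varies with GC content. The members and lists were chosen with earlier results of these data known. Named genes were the members, Cyp26b1, the 5 highest and 5 lowest wider-list genes per comparison (at least 5 FPKM) and the 5 most alike in profile. Klk7, Krt5, Krt1, Krt10, Lor, Asprv1, Flg2, Hrnr, Lass3, Plin1, Hmgcs1, Alox15 and, at E16.5, Tgm1 were named after their values were seen. So were Hba-a1, Col1a1, Col1a2 and Col3a1. A few of the ranked genes are left unreported. Of 116 list symbols, aliases included, 100 were listed. GC content came from the longest GENCODE vM1 coding transcript. Python 3.11.15, pandas 2.3.3 and scipy 1.17.1 were used.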

Additional observations from a re-analysis of the deposited data

Results flagged for a closer look

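Alox12b and Aloxe3 differed in opposite directions between mutant and control in the 2 E18.5 tissues, each past 2-fold relative to the median gene. For Alox12b the log2 fold, with the median gene at 0, was -1.26 in dermis and 1.14 in epidermis, a gap of 2.40. For Aloxe3 it was -1.02 in dermis and 1.34 in epidermis, a gap of 2.36. Each gene fell short of 2-fold in 1 tissue under some settings: without centring Alox12b was 0.97 in epidermis and Aloxe3 -0.90 in dermis, and with 75th percentile scaling 0.97 and -0.97. The difference was not tested, since each tissue has 1 library per group, and in dermis both genes stood below 10 FPKM in both libraries. Other genes showed the same opposition past 2-fold. In dermis and epidermis they included Tgm1 (-1.38 and 1.33), Cyp4f39 (-1.47 and 1.23), Acsbg1 (-2.31 and 1.38), Sdr9c7 (-1.07 and 1.01) and Ivl (-1.43 and 1.26). Degs2 went the other way (1.20 and -1.20). These genes were picked after their values were seen. Keratinocyte markers were also lower in that mutant dermis library, and their part was not tested.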

How the results depend on the processing

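No paired analysis was possible because the E16.5 table pools the libraries of a group and each E18.5 group has 1 library, and for the same reason no library could be left out. Counts were taken as moved when they differed by over 1.5 times, and folds when they differed by over 1.5-fold; 59 of the alternative values for counts and medians stayed within that, and 10 did not. With the authors' deposited q-value, not centred, E16.5 counts were 3 members higher and 2 lower and 58 wider pathway genes higher and 7 lower, in place of 0, 4, 20 and 19. At that setting 54.6% of all tested genes were higher and 3.46% lower. Centring by GC quintile gave 1 member higher. At an adjusted p below 0.01 the wider list had 10 lower. In dermis, 2 members were 2-fold lower with the planned settings, and 1 without centring, 1 with a minimum of 5 FPKM and 1 with no filter on low values; the main transcript of each gene alone gave 1 member higher (Elovl1). Of the called members, Nipal4 at E16.5 reversed, to 0.041 without centring. Values near 0 that were not called also turned sign without centring: the member median at E16.5 (-0.24 to 0.19), Alox12b at E16.5 (-0.09 to 0.34), Smpd1 in dermis (-0.07 to 0.05), and Ugcg in dermis (-0.0025 to 0.12) and epidermis (0.03 to -0.15). In epidermis the count of 2-fold higher members was 3 or 4 over the settings tried, and 6 members passed a limit of 1.5-fold. The median there ran from 0.84 to 1.04. The median of the members at E16.5 was -0.09 with Elovl4 kept, and that of dermis -0.50; Elovl4 and the GC alternative were chosen after seeing the data. The low levels of Abca12, Nipal4 and Aloxe3 in dermis, all under 4 FPKM, limit their folds there.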

Other observations

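Acsbg1 and Smpd3, the wider-list genes with the lowest folds in E16.5 null skin (-2.93 and -2.79), were not low in mutant epidermis at E18.5. Acsbg1 went from 170 to 392 FPKM there (1.38) and Smpd3 from 225 to 306 FPKM (0.62). In dermis their folds were -2.31 and -0.75. The envelope precursor Ivl, a granular layer marker named after its values were seen, showed the same order, with -2.84 in E16.5 skin, -1.43 in dermis and 1.26 in epidermis. The differences between these comparisons were not tested.

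Values of 4 further pathway genes in E16.5 skin follow. Pnpla1, the acylceramide transacylase, went from 28.0 to 47.5 FPKM (0.32, not called), and its cofactor Abhd5 from 37.6 to 56.3 FPKM (0.14, not called), while the authors' deposited table, not centred, called both higher. Ephx3, an epoxide hydrolase that acts after Aloxe3, fell from 34.7 to 29.5 FPKM (-0.65, adjusted p = 2.46e-05 from the authors' statistic), and the authors' deposited table did not call it. Sult2b1, the cholesterol sulphotransferase, fell from 92.6 to 86.8 FPKM (-0.52, adjusted p = 0.00099 from the authors' statistic), likewise without a call in the authors' deposited table. These 4 genes were named after their values were seen.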
